A study of Mus musculus with 2 samples.

Results

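The mouse major histocompatibility complex (MHC), H2, was described in single-cell RNA sequencing of whole uterus on gestational day 4. Its members were taken as every gene symbol beginning with H2-, which gave 34 of the 31053 genes listed. They comprised 2 classical class I genes, 22 non-classical class I genes, 4 classical class II genes, 5 non-classical class II genes and H2-Ke6, a gene of the complex that encodes a steroid dehydrogenase and no MHC chain. At least 1 unique molecular identifier (UMI, the tag of 1 captured RNA molecule) was counted for 25 of them. The 9 members with 0 UMIs in both libraries were H2-Q1, H2-M1, H2-M11 and the 6 H2-M10 genes.

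Class I molecules are made by nearly all nucleated cells. A heavy chain encoded by an H2 gene pairs with beta-2 microglobulin (B2m), is loaded with peptide from the cytosol and is read by CD8 T cells and by receptors of natural killer (NK) cells. Class II molecules are pairs of H2 chains, made mainly by dendritic cells, macrophages and B cells, that load peptide in endosomes with the help of the invariant chain (Cd74) and show it to CD4 T cells. Interferon-gamma raises both classes in many cell types, and in the uterus both are studied at the border between maternal immune cells and the implanting embryo.

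The comparison set 1 Mettl14 d/d library, in the notation for deleted alleles, against 1 Mettl14 f/f library, in the notation for alleles flanked by recombination sites. Mettl14 encodes a subunit of the enzyme that places N6-methyladenosine on RNA. The labels give neither the Cre line, the strain nor the number of animals behind a library. The d/d library kept 5977 cells (median 5217 UMIs) and the f/f library 7095 cells (median 6085 UMIs), and 8 barcode sequences occurred in both. Mettl14 itself stood at 5.53 CPM in d/d and 15.5 CPM in f/f over all kept cells, where CPM is UMIs scaled to a common total, a ratio of 0.358 (95% interval 0.307 to 0.416). The ratio was 0.169 in stroma-like cells and 0.972 (0.713 to 1.32) in blood endothelium-like cells. A single library stands for each genotype, so no test is possible, and the 95% intervals cover counting error alone. Log2 folds are d/d over f/f.

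Cell classes were rebuilt from marker genes that include no H2 gene, with H2 genes, B2m and Cd74 kept out of the clustering, so each carries the suffix -like. Those with at least 100 cells per library were 1704 d/d and 4608 f/f stroma-like cells, 147 and 178 epithelium-like, 1478 and 446 smooth muscle-like, 1195 and 378 pericyte-like, 603 and 486 blood endothelium-like, 294 and 231 macrophage- or monocyte-like, and 163 and 169 dendritic cell-like cells. The libraries filled some classes with different clusters. Of the stroma-like cells, 61.7% in d/d and 0.412% in f/f lay in a cluster led by A2m and Cxcl14. A cluster led by Angptl7 and one led by Tex15 held 44.1% and 38.7% of the f/f cells. The f/f epithelium-like cells were 73 luminal-like and 105 glandular-like cells, whereas 146 of the 147 d/d cells lay in sub-clusters with neither name. A further epithelial sub-cluster led by stromal markers, of 18 d/d and 99 f/f cells, was set aside and is in none of the epithelium-like values. A member was called higher or lower at a CPM ratio of 1.5, given 50 UMIs in the library with more, and 18 members reached 50 UMIs in some class.

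The members that carry the results lie on chromosome 17 of GRCm38 (mm10). The class II genes H2-Ab1 (chr17:34257689-34269419), H2-Aa (chr17:34282744-34287823) and H2-Eb1 (chr17:34305867-34316674) lie close together, with H2-K1 (chr17:33996017-34000347) to one side. H2-D1 (chr17:35262730-35267499), H2-Q4 (chr17:35379617-35385290), H2-Q6 (chr17:35424850-35430055), H2-Q7 (chr17:35439155-35443773), H2-T23 (chr17:36029773-36032855), H2-T22 (chr17:36037128-36042747) and H2-M3 (chr17:37270220-37274484) follow on the other. Promoters of 5 members are printed because these genes span the patterns below: H2-K1, H2-D1 and H2-Q7 were higher in d/d stroma-like cells, H2-T22 was not, and H2-Aa is a class II gene. They are RefSeq sequences on GRCm38.p6, from 250 bases before to 50 bases after the annotated start, read 5′ to 3′ on the strand of the gene, and 31 of the 34 members had one. The windows are H2-K1 at chr17:34000298-34000597 (minus strand), H2-D1 at chr17:35262844-35263143 (plus strand), H2-Q7 at chr17:35438905-35439204 (plus strand), H2-T22 at chr17:36042693-36042992 (minus strand) and H2-Aa at chr17:34287774-34288073 (minus strand). The H2-D1 window lies inside the gene interval given above, so its RefSeq start differs from the start of that interval. Capitals mark GGGATTCCC and TTTCACTTC in the first 3, GAAANNGAA read on the opposite strand in H2-T22, and TGACGTCA in H2-Aa. On the strand of the gene, the H2-T22 stretch with the base before it begins TTTCACTT, as TTTCACTTC does, and parts from it at the next letter.
H2-K1: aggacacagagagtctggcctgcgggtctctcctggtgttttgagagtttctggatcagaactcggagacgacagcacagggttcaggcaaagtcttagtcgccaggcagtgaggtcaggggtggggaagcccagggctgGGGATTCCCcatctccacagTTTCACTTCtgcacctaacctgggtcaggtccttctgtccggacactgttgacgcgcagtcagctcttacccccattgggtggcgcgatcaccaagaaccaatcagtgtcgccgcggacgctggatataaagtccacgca
H2-D1: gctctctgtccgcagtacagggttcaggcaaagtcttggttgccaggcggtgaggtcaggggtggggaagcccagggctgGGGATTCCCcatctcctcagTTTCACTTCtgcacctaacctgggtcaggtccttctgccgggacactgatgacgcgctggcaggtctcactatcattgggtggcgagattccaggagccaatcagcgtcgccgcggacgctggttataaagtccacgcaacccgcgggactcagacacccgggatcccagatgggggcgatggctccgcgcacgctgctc
H2-Q7: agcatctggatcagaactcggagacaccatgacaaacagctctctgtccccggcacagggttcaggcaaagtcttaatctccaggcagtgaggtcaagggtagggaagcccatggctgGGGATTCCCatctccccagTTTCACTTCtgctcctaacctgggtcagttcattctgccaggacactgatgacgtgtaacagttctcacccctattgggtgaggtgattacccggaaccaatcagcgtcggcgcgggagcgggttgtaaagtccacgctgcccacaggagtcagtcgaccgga
H2-T22: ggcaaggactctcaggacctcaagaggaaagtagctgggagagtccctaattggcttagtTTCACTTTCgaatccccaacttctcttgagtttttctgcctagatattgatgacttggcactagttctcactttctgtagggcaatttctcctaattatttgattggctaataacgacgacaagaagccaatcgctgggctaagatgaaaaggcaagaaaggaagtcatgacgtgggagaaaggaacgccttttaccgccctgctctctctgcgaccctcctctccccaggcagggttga
H2-Aa: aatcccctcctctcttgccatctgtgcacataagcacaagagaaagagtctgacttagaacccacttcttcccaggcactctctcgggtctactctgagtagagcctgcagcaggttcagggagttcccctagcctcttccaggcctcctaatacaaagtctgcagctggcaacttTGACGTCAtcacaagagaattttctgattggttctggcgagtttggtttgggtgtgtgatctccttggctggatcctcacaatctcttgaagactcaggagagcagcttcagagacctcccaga

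The motifs were chosen after the sequences had been looked at, were searched on both strands, and the marked copies do not overlap. GGGATTCCC, part of the kappaB element of class I genes, occurred in H2-K1, H2-D1, H2-Q6 and H2-Q7, and in 0.353% of all 32851 promoters of this length. TTTCACTTC, part of the interferon-response element of class I genes, occurred in 7 members (H2-K1, H2-D1, H2-Q4, H2-Q6, H2-Q7, H2-Q10 and H2-M3) and in 0.505% of all promoters. It began 90 bases before the start of H2-K1, 150 before that of H2-D1 and 113 before that of H2-Q7. A CCAAT copy on the opposite strand began 16, 76 and 40 bases before these starts. Both distances thus shift together with where the start is annotated. The spacing between these motifs is the same in H2-K1 and H2-D1 and slightly shorter in H2-Q7. GAAANNGAA, a general interferon-response motif, occurred in H2-T23 and H2-T22 and in 8.56% of all promoters. TGACGTCA, the cyclic AMP response element, occurred in H2-Aa and in 1.79% of all promoters. CCAAT occurred in 27 of the 31 member promoters and in 37.4% of all. The printed promoters were picked by fold, and members not printed carry other pairings. In stroma-like cells H2-M3, with TTTCACTTC, was under the 1.5-fold mark. H2-T23, with GAAANNGAA as in H2-T22, was called higher in d/d there, as was H2-Q4, which lacks GGGATTCCC. H2-Q6, with GGGATTCCC and TTTCACTTC, was also called higher. A relation between motifs and folds was not tested. A match describes letters and says nothing of binding in these cells.

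**Figure D1:**
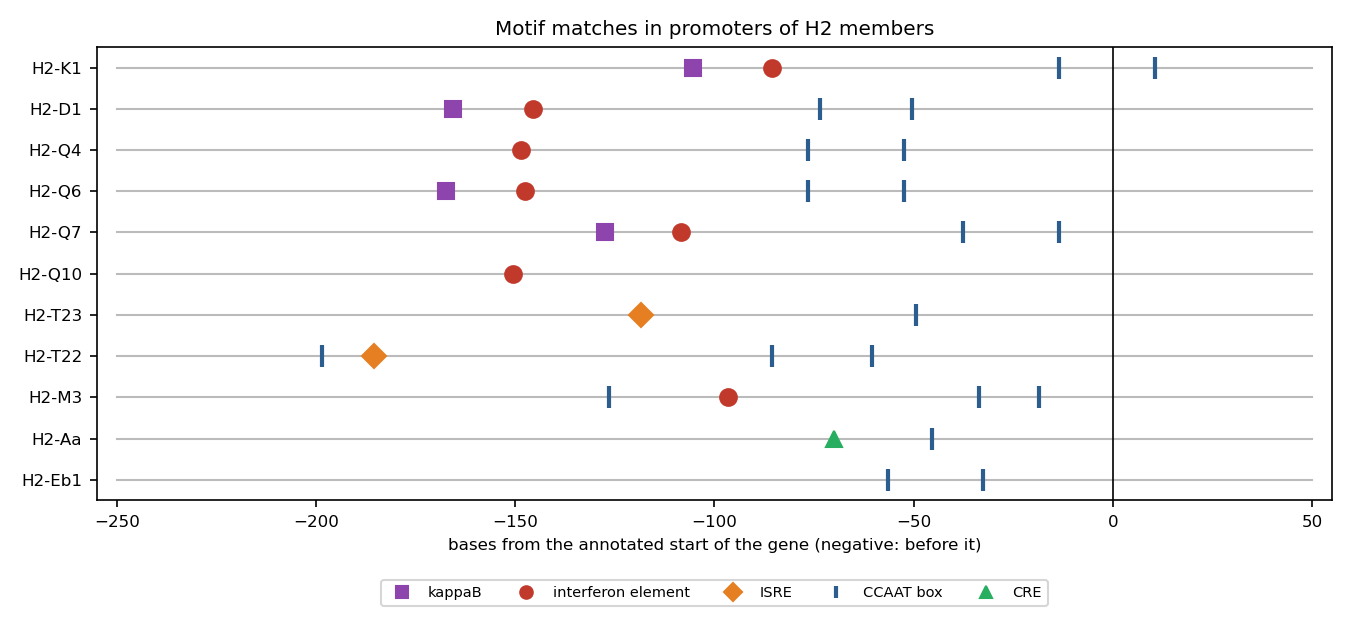
Motif matches in 11 member promoters, with bases from the annotated start on the x axis (negative before it) and 1 gene per row. Squares mark GGGATTCCC (kappaB), circles TTTCACTTC (interferon element), diamonds GAAANNGAA (ISRE), vertical bars CCAAT and the triangle TGACGTCA (CRE); H2-K1, H2-D1, H2-Q6 and H2-Q7 carry both square and circle.

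The classical class I genes H2-K1 and H2-D1, whose products present peptide to CD8 T cells, had a summed log2 fold above 0 in each of the 7 classes and passed the 1.5-fold mark in 5. The sum was 1001 CPM in d/d and 444 CPM in f/f stroma-like cells (log2 fold 1.17, 1.14 to 1.21) and 2181 CPM in d/d and 969 CPM in f/f epithelium-like cells (1.17, 1.1 to 1.24). It was 3164 CPM in d/d and 2011 CPM in f/f blood endothelium-like cells (0.65, 0.62 to 0.69), and 295 CPM in d/d and 185 CPM in f/f smooth muscle-like cells (0.67, 0.51 to 0.83). Macrophage- or monocyte-like cells had 4476 CPM in d/d and 2759.5 CPM in f/f (0.70, 0.62 to 0.77). The values under the mark were 3165 CPM in d/d and 2646 CPM in f/f dendritic cell-like cells (0.26, 0.17 to 0.35) and 621 CPM in d/d and 524 CPM in f/f pericyte-like cells (0.24, 0.14 to 0.34). Over all genes with at least 100 UMIs the median log2 fold lay between -0.19 and -0.04 in these classes. The pericyte-like value turned to -0.070 when each library was clustered by itself. Per UMI of the marker genes of each class, an alternative chosen after seeing the data, the log2 change was 0.35 in stroma-like, 0.32 in blood endothelium-like, 1.14 in smooth muscle-like, 1.14 in pericyte-like, 0.82 in dendritic cell-like and -0.043 in macrophage- or monocyte-like cells. The marker sums themselves had log2 folds of 0.82 in stroma-like, 0.33 in blood endothelium-like and 0.74 in macrophage- or monocyte-like cells. They had -0.47 in smooth muscle-like, -0.90 in pericyte-like (5970 CPM in d/d and 11123 CPM in f/f) and -0.56 in dendritic cell-like cells. Their part in these values was not tested. The pericyte-like and dendritic cell-like values passed the 1.5-fold mark on that scale, and those of stroma-like, blood endothelium-like and macrophage- or monocyte-like cells did not. In dendritic cell-like cells the value also passed it under the trimmed mean of M values (TMM), at 0.62.

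Smooth muscle-like cells had the lowest classical class I level of the drawn classes in both libraries. T cell-like cells had the highest, with 5572 CPM in d/d and 5015 CPM in f/f (257 d/d and 54 f/f cells), and NK- or innate lymphoid-like cells had 4509 CPM in d/d and 3119.8 CPM in f/f (37 and 220 cells). For lymphatic endothelium-like cells the level was 2450.4 CPM in d/d and 2086 CPM in f/f (61 and 81 cells). Of all classical class I UMIs, blood endothelium-like cells held 25.2% in d/d and 24.5% in f/f, stroma-like cells 21.8% in d/d and 39.7% in f/f and epithelium-like cells 15.2% in d/d and 5.6% in f/f. These shares also follow how many cells of each class were recovered.

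**Figure D2:**
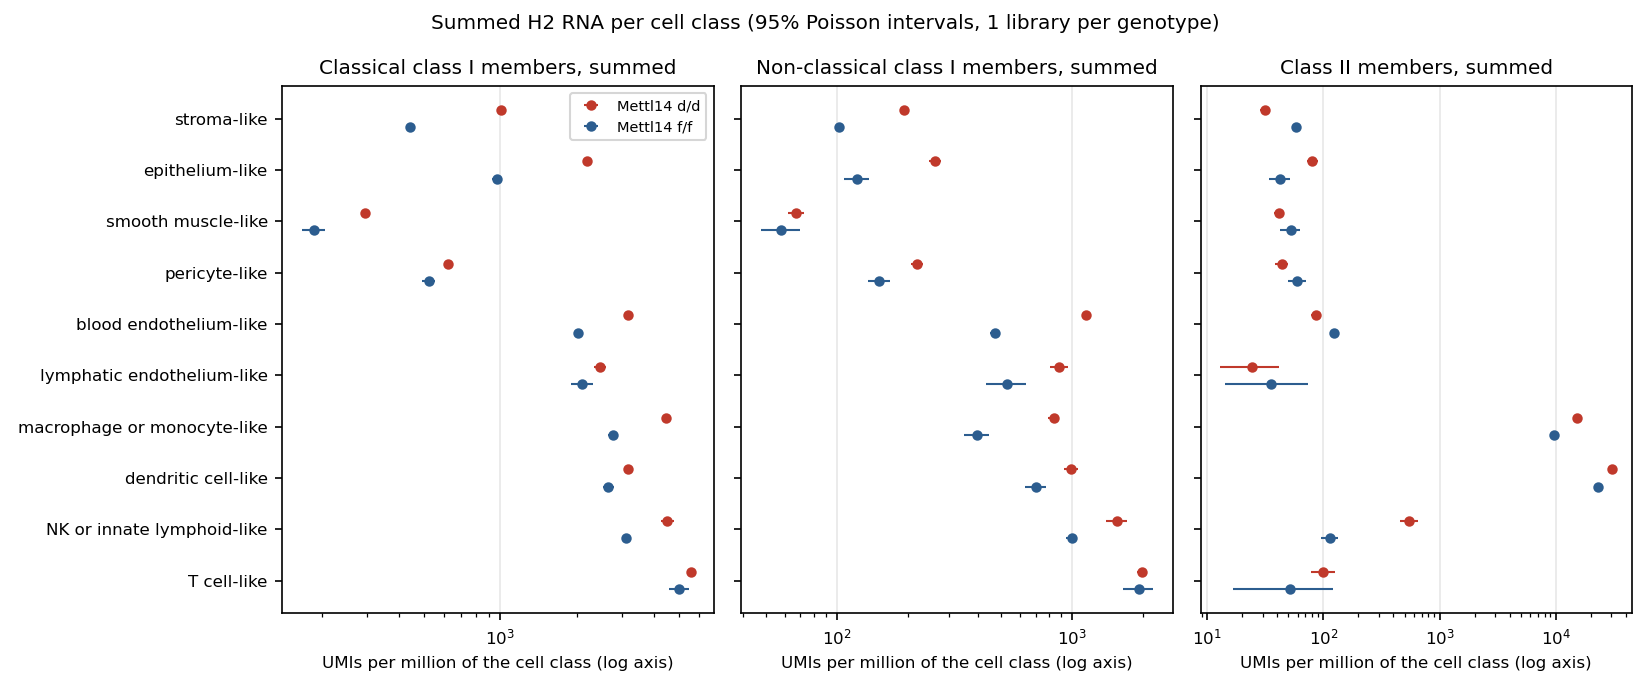
Summed CPM (x axis, log scale) of classical class I, non-classical class I and class II members in 10 cell classes (rows), with d/d in red above f/f in blue and 95% Poisson intervals as bars. Class I is present in every class, and class II is highest in dendritic cell-like cells (30299 CPM in d/d and 22940.0 CPM in f/f) and next in macrophage- or monocyte-like cells (15088 CPM in d/d and 9706 CPM in f/f).

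H2-D1 differed more than H2-K1 in several classes. In stroma-like cells H2-D1 had 5815 UMIs in d/d and 4813 in f/f, which is 447 CPM in d/d and 144 CPM in f/f (log2 fold 1.64, 1.58 to 1.69). H2-K1 had 7211 UMIs in d/d and 10065 in f/f, which is 554 CPM in d/d and 300.5 CPM in f/f (0.88, 0.84 to 0.93). The H2-D1 UMIs per H2-K1 UMI of the same cells, a ratio that needs no scaling, were 0.806 in d/d and 0.478 in f/f stroma-like cells (log2 change 0.75, 0.68 to 0.82, Wald interval). They were 0.951 in d/d and 0.632 in f/f macrophage- or monocyte-like cells (0.59, 0.44 to 0.74) and 0.682 in d/d and 0.534 in f/f blood endothelium-like cells (0.35, 0.27 to 0.43). The interval of the change held 0 in smooth muscle-like (0.21, -0.12 to 0.54) and pericyte-like cells (-0.04, -0.24 to 0.16). H2-D1 was called higher in 5 of the 7 classes, with log2 folds of 1.3 in epithelium-like, 0.80 in smooth muscle-like, 0.87 in blood endothelium-like and 1.03 in macrophage- or monocyte-like cells, and H2-K1 in 3, with 1.1 in epithelium-like and 0.59 in smooth muscle-like cells. Both genes are polymorphic and the labels give no H2 haplotype for either library, so how well each allele matches the mm10 sequence was not tested.

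Cell by cell, the stroma-like difference was spread over the class. With each cell thinned to 1000 UMIs, 33.9% of d/d and 13.6% of f/f stroma-like cells had an H2-D1 UMI and 38.1% of d/d and 27% of f/f had an H2-K1 UMI. Unthinned, the H2-D1 shares were 81.6% in d/d and 57.4% in f/f, at median depths of 6962 UMIs in d/d and 6638.5 in f/f. The median of classical class I per 1000 UMIs of a cell was 0.845 in d/d and 0.384 in f/f, and the lower quartile in d/d, 0.461, lay above the f/f median. Among epithelium-like cells, 66.7% of d/d and 41.6% of f/f thinned cells had an H2-K1 UMI, against unthinned shares of 99.3% in d/d and 93.8% in f/f at median depths of 16171 and 9289 UMIs. No class here should lack class I, so no class gives a background for these shares.

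Clusters within a class differed. In the stromal cluster led by Clec3b and C3, held by 580 d/d and 400 f/f cells, classical class I was 1299 CPM in d/d and 702 CPM in f/f (log2 fold 0.89, 0.80 to 0.98), and in the stromal cluster led by Cenpf and Prc1, of 50 d/d and 373 f/f cells, the log2 fold was 1.09, 0.96 to 1.22. Endothelial cluster 5, led by Selp, with 460 d/d and 450 f/f cells, had 0.67, 0.63 to 0.71. Cluster 16, led by Sema3g and Gja5, with 143 and 36 cells, had 0.15, 0.04 to 0.27. Smooth muscle cluster 2, led by Pcp4, had 1.0, 0.80 to 1.2, and cluster 6, led by Acta1, had 0.09, -0.19 to 0.38. Pericyte clusters 7, 8 and 11 had log2 folds of 0.63, 0.22 and 0.62. Cluster 7 held 573 d/d and 66 f/f cells with no pericyte marker among its 10 leading genes, cluster 8 held 517 and 34 with haemoglobin genes among them, and cluster 11 held 105 and 278. The pooled pericyte-like fold is thus below those of clusters 7 and 11.

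The d/d epithelium-like cells had more classical class I than either f/f group. Their 2181 CPM stood against 1085 CPM in f/f luminal-like cells (log2 fold 1.01, 0.92 to 1.1) and 861 CPM in f/f glandular-like cells (1.34, 1.24 to 1.44). H2-Q7, which with H2-Q6 encodes Qa-2, was at 71.7 CPM in d/d cells, against 32.5 CPM in luminal-like and 8.96 CPM in glandular-like f/f cells. H2-T23 was at 80.4 CPM in d/d cells, against 27.7 CPM in luminal-like (1.54, 0.99 to 2.14) and 68.1 CPM in glandular-like f/f cells (0.24, -0.12 to 0.62). For H2-Q7 the glandular-like cells were the lower f/f group and for H2-T23 the luminal-like cells were. B2m was 567 CPM in d/d cells, against 959.9 CPM in luminal-like (-0.76, -0.87 to -0.65) and 424 CPM in glandular-like f/f cells (0.42, 0.28 to 0.57).

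Non-classical class I genes encode heavy chains with narrower roles, among them ligands of NK cell and gamma-delta T cell receptors. Their sum was 1149 CPM in d/d and 469 CPM in f/f blood endothelium-like cells (log2 fold 1.29, 1.22 to 1.36), 834 CPM in d/d and 393 CPM in f/f macrophage- or monocyte-like cells (1.09, 0.89 to 1.28), 261 CPM in d/d and 122 CPM in f/f epithelium-like cells (1.1, 0.90 to 1.3) and 194 CPM in d/d and 102 CPM in f/f stroma-like cells (0.93, 0.85 to 1.0). Pericyte-like cells had 218 CPM in d/d and 151 CPM in f/f (0.53) and dendritic cell-like cells 992 CPM in d/d and 699 CPM in f/f (0.50). The interval held 0 in smooth muscle-like (0.22, -0.08 to 0.52) and T cell-like cells (0.05, -0.18 to 0.27). Per UMI of the marker genes of the class, the log2 change was 0.11 in stroma-like, 1.02 in epithelium-like, 0.69 in smooth muscle-like, 1.43 in pericyte-like, 0.96 in blood endothelium-like, 0.34 in macrophage- or monocyte-like and 1.07 in dendritic cell-like cells. The stroma-like and macrophage- or monocyte-like sums were thus under the 1.5-fold mark on that scale. The pericyte markers themselves had a log2 fold of -0.90 in pericyte-like cells. Per classical class I UMI, the sum was 0.363 in d/d and 0.233 in f/f blood endothelium-like cells (log2 change 0.64, 0.56 to 0.72) and 0.194 in d/d and 0.229 in f/f stroma-like cells (-0.24, -0.33 to -0.16).

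Of the class I members that could be called within a class, H2-Q7 had the largest log2 fold in stroma-like cells and H2-Q6 in blood endothelium-like cells. Both genes, which encode Qa-2, were also called higher in d/d macrophage- or monocyte-like cells. There H2-Q6 had 191 UMIs in d/d and 26 in f/f, and H2-Q7 had 257 in d/d and 35 in f/f. H2-Q7 had 801 UMIs in d/d and 479 in f/f stroma-like cells, which is 61.6 CPM in d/d and 14.3 CPM in f/f (log2 fold 2.11, 1.94 to 2.27). In smooth muscle-like cells it had 70 UMIs in d/d and 2 in f/f, a log2 ratio of 2.97, 1.07 to 6.05. H2-Q6 had 1616 UMIs in d/d and 459 in f/f blood endothelium-like cells, which is 339.6 CPM in d/d and 100.4 CPM in f/f (1.76, 1.61 to 1.91). Both genes were higher in d/d, but their balance moved in opposite directions between these classes. The H2-Q6 UMIs per H2-Q7 UMI were 1.1 in d/d and 0.709 in f/f blood endothelium-like cells (log2 change 0.64, 0.44 to 0.84) and 0.326 in d/d and 0.635 in f/f stroma-like cells (-0.96, -1.25 to -0.67). T cell-like cells showed no such excess, with H2-Q7 at 698 CPM in d/d and 917 CPM in f/f (-0.39, -0.72 to -0.05) and H2-Q6 at 482 CPM in d/d and 577 CPM in f/f (-0.26, -0.67 to 0.17). With cells thinned, 26.4% of d/d and 13% of f/f blood endothelium-like cells had an H2-Q6 UMI, against unthinned shares of 80.8% in d/d and 47.3% in f/f at median depths of 5924 and 6126 UMIs.

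H2-Q4, a further gene of the Q region, was called higher in 5 of the 7 classes. It was at 138 CPM in d/d and 53.6 CPM in f/f blood endothelium-like cells (log2 fold 1.37, 1.15 to 1.58) and 110.2 CPM in d/d and 48.2 CPM in f/f pericyte-like cells (1.19, 0.89 to 1.51). Within pericyte cluster 7 it was at 129 CPM in d/d and 59.5 CPM in f/f, and within cluster 11 at 51.2 CPM in d/d and 48.4 CPM in f/f (0.08, -0.58 to 0.70). H2-T23 encodes Qa-1, the ligand of the inhibitory receptor CD94/NKG2A. It was at 233 CPM in d/d and 97.1 CPM in f/f blood endothelium-like cells (1.27, 1.11 to 1.43), 339 CPM in d/d and 143 CPM in f/f macrophage- or monocyte-like cells (1.24, 0.93 to 1.57) and 33.2 CPM in d/d and 18.3 CPM in f/f stroma-like cells (0.86, 0.68 to 1.04).

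H2-T22, whose product is bound by some gamma-delta T cell receptors, departed from the others. It had 487 UMIs in d/d and 1180 in f/f stroma-like cells, which is 37.4 CPM in d/d and 35.2 CPM in f/f (log2 fold 0.09, -0.07 to 0.24). In pericyte-like cells it was lower in d/d, with 21.4 CPM in d/d and 37.7 CPM in f/f (-0.82, -1.25 to -0.38), but within pericyte cluster 11 it was at 40.6 CPM in d/d and 41.6 CPM in f/f (-0.04, -0.78 to 0.66). For blood endothelium-like cells it was 87.6 CPM in d/d and 54.9 CPM in f/f (0.67, 0.45 to 0.91). H2-M3, which presents N-formylated peptides, was at 35.7 CPM in d/d and 18.8 CPM in f/f blood endothelium-like cells (0.93, 0.54 to 1.32) and 9.15 CPM in d/d and 9.88 CPM in f/f stroma-like cells (-0.11, -0.43 to 0.20). H2-M5 had 8 UMIs in d/d and 50 in f/f stroma-like cells. The rest of the class I members with a UMI (H2-Q2, H2-Q10, H2-T24, H2-T3, H2-M9 and H2-M2) had between 0 and 75 UMIs per library over all kept cells.

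**Figure D3:**
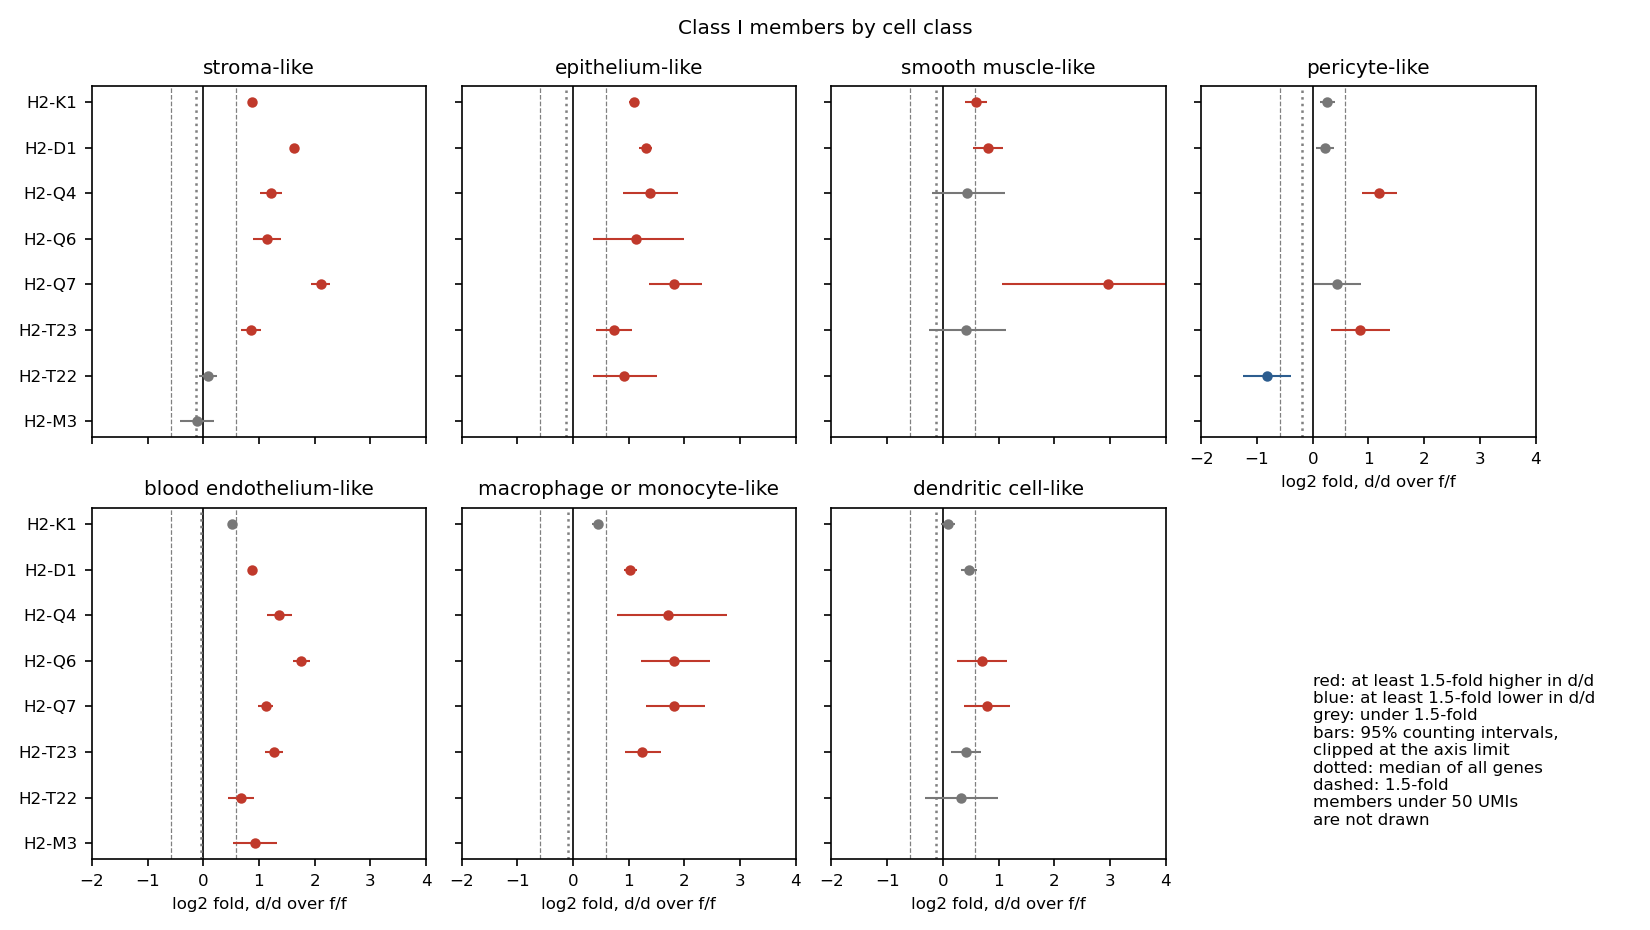
Log2 fold, d/d over f/f (x axis), of 8 class I members (rows) in 7 cell classes (panels), with 95% counting intervals as bars. Red is at least 1.5-fold higher in d/d, blue at least 1.5-fold lower and grey neither; in stroma-like cells H2-T22 sits at 0.09 and H2-M3 at -0.11 while the other 6 lie between 0.86 and 2.11.

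Over all 34 members, calls could be made where the library with the higher CPM had 50 UMIs. A library with fewer UMIs in a class had to reach a higher CPM for this, and the same held for all genes. In stroma-like cells 6 of 15 were higher and 5 lower in d/d, beside 14.1% of all genes higher and 20.4% lower. In epithelium-like cells 9 of 11 were higher and 0 lower in d/d, beside 17.5% of all genes higher and 22.7% lower. The 9 include H2-Aa and H2-Eb1, which turned to lower with doublets kept. In that class 3 of the 147 d/d cells held 62% of the class II UMIs. In blood endothelium-like cells 7 of 12 were higher and 2 lower in d/d, beside 11.4% of all genes higher and 11% lower. In macrophage- or monocyte-like cells 9 of 11 were higher and 0 lower in d/d, beside 25.9% of all genes higher and 21.6% lower. In smooth muscle-like cells 3 of 6 were higher and 0 lower in d/d, beside 14.2% of all genes higher and 11.1% lower. The f/f library had fewer UMIs in that class, so a lower call was harder to reach there. H2-Q7 entered with 70 UMIs in d/d and 2 in f/f, and H2-T22, with 169 in d/d and 47 in f/f, could not be called. In pericyte-like cells 3 of 7 were higher and 1 lower in d/d, beside 15.9% of all genes higher and 21.9% lower. Among dendritic cell-like cells 2 of 14 were higher and 0 lower in d/d, beside 16.9% of all genes higher and 19.8% lower. The 2 were H2-Q6, at 173 CPM in d/d and 107 CPM in f/f (0.70, 0.26 to 1.15), and H2-Q7, at 214 CPM in d/d and 124 CPM in f/f (0.79, 0.38 to 1.2). Within the shared stromal cluster 6 of 8 were higher and 0 lower in d/d, beside 12.8% of all genes higher and 13.6% lower. Within endothelial cluster 5, 7 of 12 were higher and 1 lower in d/d, beside 10.6% of all genes higher and 11.6% lower. Within pericyte cluster 11, 2 of 4 were higher and 0 lower in d/d, beside 5.06% of all genes higher and 29.7% lower. The median log2 fold of the members that could be called was 0.09 in stroma-like, 1.14 in epithelium-like, 0.77 in blood endothelium-like, 0.66 in macrophage- or monocyte-like and 0.28 in dendritic cell-like cells, beside -0.16, -0.05, -0.04, 0.09 and -0.07 over all genes that could be called.

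Scaling moved these counts. Under TMM the median log2 fold of all genes was 0.37 in macrophage- or monocyte-like and 0.23 in dendritic cell-like cells, and 11 and 10 members were higher. The share of higher calls among all called genes was 82.2% under TMM and 54.5% with class totals in macrophage- or monocyte-like cells, and 80.3% and 46.1% in dendritic cell-like cells. It was 78.5% and 56% in smooth muscle-like, 67% and 42% in pericyte-like and 62% and 43.5% in epithelium-like cells, where TMM gave 6, 4 and 9 members higher and 0 lower, so that the lower call of H2-T22 in pericyte-like cells was lost. These are shares of called genes, not of all genes that could be called, so the member counts cannot be set against them. With TMM, 1526 of all genes were higher and 331 lower in macrophage- or monocyte-like cells, against 814 and 680 with class totals. In dendritic cell-like cells the counts were 642 and 157 with TMM, against 328 and 383.

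Of 15 listed genes of class I assembly and peptide supply, stroma-like cells had 1 of 15 higher and 1 lower, epithelium-like cells 2 of 12 higher and 1 lower, smooth muscle-like cells 1 of 11 higher and 1 lower, pericyte-like cells 0 of 12 higher and 5 lower, blood endothelium-like cells 2 of 15 higher and 1 lower, macrophage- or monocyte-like cells 2 of 11 higher and 2 lower and dendritic cell-like cells 1 of 12 higher and 1 lower. Over all genes, the shares called higher and lower were 14.1% and 20.4% in stroma-like, 17.5% and 22.7% in epithelium-like, 14.2% and 11.1% in smooth muscle-like, 15.9% and 21.9% in pericyte-like, 11.4% and 11% in blood endothelium-like, 25.9% and 21.6% in macrophage- or monocyte-like and 16.9% and 19.8% in dendritic cell-like cells. B2m, the light chain, was at 697 CPM in d/d and 418 CPM in f/f stroma-like cells (log2 fold 0.74), 2112 CPM in d/d and 1292 CPM in f/f blood endothelium-like cells (0.71), 567 CPM in d/d and 683 CPM in f/f epithelium-like cells (-0.27) and 457 CPM in d/d and 641 CPM in f/f pericyte-like cells (-0.49). The CPM of B2m was also higher in d/d than in f/f smooth muscle-like, macrophage- or monocyte-like and dendritic cell-like cells. Per classical class I UMI, B2m was 0.26 in d/d and 0.705 in f/f epithelium-like cells (log2 change -1.44, -1.55 to -1.32) and 0.667 in d/d and 0.642 in f/f blood endothelium-like cells (0.05, 0.00 to 0.11). That log2 change was -0.44 in stroma-like, -0.07 in smooth muscle-like and -0.73 in pericyte-like cells. It was 0.16 in macrophage- or monocyte-like and 0.43 in dendritic cell-like cells. Nlrc5, the transactivator of class I genes, was lower in d/d stroma-like cells, with 2.92 CPM in d/d and 5.43 CPM in f/f (-0.90, -1.44 to -0.38), and at 21.4 CPM in d/d and 22.1 CPM in f/f blood endothelium-like cells (-0.04). The immunoproteasome subunit Psmb8 was higher in d/d epithelium-like (0.73) and blood endothelium-like cells (0.62), and its partner Psmb9 was lower in d/d pericyte-like cells (-1.5). Calr and Pdia3, chaperones of the heavy chain, were lower in d/d pericyte-like cells (-1.0 and -0.98).

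Irf1, an interferon-induced transcription factor that binds interferon-response motifs, was higher in d/d in all 7 classes. Its log2 fold was 1.14 in stroma-like, 2.05 in epithelium-like, 0.80 in smooth muscle-like, 2.32 in pericyte-like, 2.12 in blood endothelium-like, 1.57 in macrophage- or monocyte-like and 1.58 in dendritic cell-like cells. Socs1, a feedback inhibitor, was higher in d/d stroma-like (1.05), smooth muscle-like (1.33), pericyte-like (0.79) and blood endothelium-like cells (1.28). Of the 15 listed genes of interferon input, stroma-like cells had 5 of 13 higher and 1 lower, epithelium-like cells 4 of 11 higher and 1 lower, smooth muscle-like cells 4 of 12 higher and 0 lower, pericyte-like cells 2 of 13 higher and 0 lower, blood endothelium-like cells 3 of 13 higher and 0 lower, macrophage- or monocyte-like cells 2 of 11 higher and 2 lower and dendritic cell-like cells 3 of 9 higher and 2 lower. Over all genes, the shares called higher were 14.1% in stroma-like, 17.5% in epithelium-like, 14.2% in smooth muscle-like, 15.9% in pericyte-like, 11.4% in blood endothelium-like, 25.9% in macrophage- or monocyte-like and 16.9% in dendritic cell-like cells. The share of the list called higher was not above that of all genes in pericyte-like and macrophage- or monocyte-like cells.

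Class II RNA lay mostly in the antigen-presenting classes. Dendritic cell-like cells held 51.4% in d/d and 58% in f/f of all class II UMIs, and macrophage- or monocyte-like cells 44.4% in d/d and 28.6% in f/f. The class II sum was 15088 CPM in d/d and 9706 CPM in f/f macrophage- or monocyte-like cells (log2 fold 0.64, 0.60 to 0.68) and 30299 CPM in d/d and 22940.0 CPM in f/f dendritic cell-like cells (0.40, 0.37 to 0.43). H2-Aa and H2-Ab1 encode the chains of I-A and H2-Eb1 a beta chain of I-E. H2-Aa was at 4668 CPM in d/d and 3049 CPM in f/f macrophage- or monocyte-like cells (0.61) and 8214 CPM in d/d and 6028 CPM in f/f dendritic cell-like cells (0.45). H2-Ab1 was at 4172 CPM in d/d and 2635 CPM in f/f macrophage- or monocyte-like cells (0.66) and 8490.2 CPM in d/d and 7201 CPM in f/f dendritic cell-like cells (0.24). H2-Eb1 was at 5688 CPM in d/d and 3606 CPM in f/f macrophage- or monocyte-like cells (0.66) and 12062 CPM in d/d and 8192 CPM in f/f dendritic cell-like cells (0.56). All 3 were called higher in d/d in the macrophage- or monocyte-like class, and none in the dendritic cell-like class. The dendritic cell-like class II sum passed the 1.5-fold mark under TMM (0.76), with no doublets removed (0.69) and with each library clustered by itself (0.79).

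Other measures moved with the macrophage- or monocyte-like values. The 11 macrophage markers summed to 20756 CPM in d/d and 12418 CPM in f/f cells of the class (log2 fold 0.74). Per UMI of these markers, class II was 0.727 in d/d and 0.782 in f/f (log2 change -0.10, -0.16 to -0.05) and classical class I 0.216 in d/d and 0.222 in f/f (-0.04, -0.13 to 0.04), so that both directions turned. The 10 stromal markers, none at 0 there, stood at 4.05% of their stroma-like level in d/d and 40.5% in f/f, and the median depth was 4362 UMIs in d/d and 2000 in f/f. Their part in the class I and class II values was not tested. In dendritic cell-like cells the stromal markers stood at 1.75% in d/d and 8.16% in f/f. The 10 dendritic cell markers, none at 0 there, summed to 1378 CPM in d/d and 2038 CPM in f/f (log2 fold -0.56). Per UMI of these markers, class II was 22 in d/d and 11.3 in f/f (log2 change 0.97, 0.84 to 1.09) and classical class I 2.3 in d/d and 1.3 in f/f (0.82, 0.67 to 0.97), and their part in the dendritic cell-like values was not tested.

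H2-DMa and H2-DMb1 encode chains of the molecule that exchanges the invariant chain fragment for peptide. H2-DMa was at 344 CPM in d/d and 272 CPM in f/f macrophage- or monocyte-like cells (log2 fold 0.34, 0.09 to 0.59) and 676 CPM in d/d and 704 CPM in f/f dendritic cell-like cells (-0.06, -0.25 to 0.13). H2-DMb1 was at 207 CPM in d/d and 137 CPM in f/f macrophage- or monocyte-like cells (0.59, 0.25 to 0.94) and 315 CPM in d/d and 326 CPM in f/f dendritic cell-like cells (-0.05, -0.33 to 0.23). In dendritic cell-like cells H2-DMb2 was at 118 CPM in d/d and 99.9 CPM in f/f (0.24, -0.24 to 0.74). H2-Oa and H2-Ob, whose product restrains that exchange, were at 236 CPM in d/d and 202 CPM in f/f (0.23, -0.11 to 0.57) and 181 CPM in d/d and 184 CPM in f/f (-0.03, -0.40 to 0.34) there. Per classical class II UMI, the non-classical sum was 0.053 in d/d and 0.0707 in f/f dendritic cell-like cells, a log2 change of -0.42, -0.54 to -0.29. H2-Eb2, a further I-E beta chain gene, had 15 UMIs in d/d and 3 in f/f over all kept cells.

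Within the dendritic cell-like class, cluster 15 (120 d/d and 105 f/f cells, led by Cd209a) had class II at 31967 CPM in d/d and 26992 CPM in f/f (log2 fold 0.24, 0.21 to 0.28). Cluster 19 (43 d/d and 64 f/f cells, with Xcr1 and Clec9a among its leading genes) had it at 27190.0 CPM in d/d and 18197 CPM in f/f (0.58, 0.53 to 0.63). Per 1000 UMIs of a cell, class II had a median of 30.2 in d/d and 23.9 in f/f dendritic cell-like cells. In macrophage- or monocyte-like cells the median was 15.6 in d/d and 10.4 in f/f, with quartiles of 3.16 and 26.3 in d/d and 1.75 and 22.1 in f/f. The interquartile ranges of the 2 libraries overlapped in that class. With cells thinned to 1000 UMIs, 85.7% of d/d and 82.3% of f/f macrophage- or monocyte-like cells had a class II UMI, against 3.52% of d/d and 4.06% of f/f stroma-like cells as a background. Unthinned, the shares were 93.2% in d/d and 88.3% in f/f in the macrophage- or monocyte-like class and 19% in d/d and 25% in f/f in the stroma-like class.

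**Figure D4:**
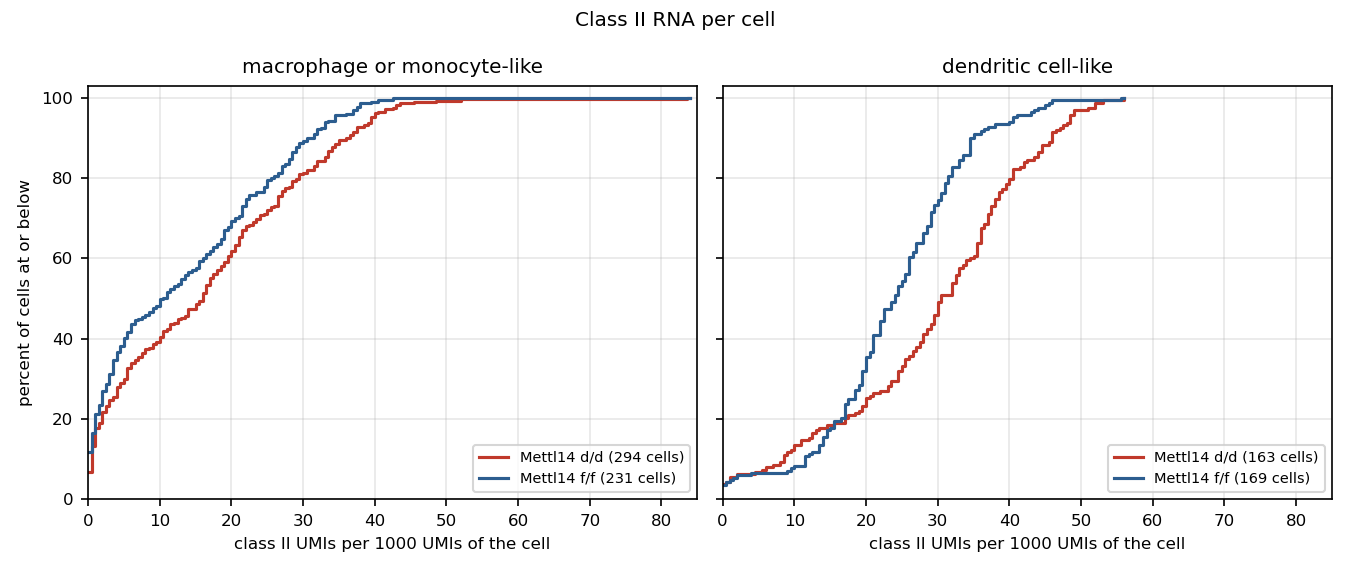
Cumulative percent of cells (y axis) against class II UMIs per 1000 UMIs of the cell (x axis) in macrophage- or monocyte-like and dendritic cell-like cells, with d/d in red and f/f in blue. The medians are 15.6 in d/d and 10.4 in f/f macrophage- or monocyte-like cells, and 30.2 in d/d and 23.9 in f/f dendritic cell-like cells.

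Cd74, the invariant chain, was at 8367 CPM in d/d and 5914 CPM in f/f macrophage- or monocyte-like cells (log2 fold 0.50) and 13818 CPM in d/d and 14489 CPM in f/f dendritic cell-like cells (-0.07). Per Cd74 UMI, class II was 1.8 in d/d and 1.64 in f/f macrophage- or monocyte-like cells (log2 change 0.14, 0.07 to 0.20) and 2.19 in d/d and 1.58 in f/f dendritic cell-like cells (0.47, 0.42 to 0.52). Ciita, the transactivator of class II genes, was lower in d/d dendritic cell-like cells, with 60 UMIs in d/d and 99 in f/f (-1.21, -1.7 to -0.73), and had 51 UMIs in d/d and 23 in f/f macrophage- or monocyte-like cells (0.09, -0.65 to 0.87). March1, a ligase that marks class II for degradation, was lower in d/d dendritic cell-like cells, with 32 UMIs in d/d and 66 in f/f (-1.53, -2.19 to -0.90). Ctss, which cleaves the invariant chain, was higher in d/d macrophage- or monocyte-like cells, with 2991 CPM in d/d and 1466 CPM in f/f (1.03). Of the 9 listed genes of the class II pathway in the files, macrophage- or monocyte-like cells had 2 of 5 higher and 0 lower and dendritic cell-like cells 1 of 6 higher and 2 lower. The other classes had 3 to 6 of them that could be called, with 1 of 6 higher and 1 lower in stroma-like, 1 of 4 higher and 1 lower in epithelium-like, 2 of 3 higher and 1 lower in smooth muscle-like, 1 of 3 higher and 1 lower in pericyte-like and 1 of 6 higher and 3 lower in blood endothelium-like cells. Over all genes, 25.9% were called higher and 21.6% lower in macrophage- or monocyte-like cells, and 16.9% higher and 19.8% lower in dendritic cell-like cells. The shares were 14.1% higher and 20.4% lower in stroma-like, 17.5% and 22.7% in epithelium-like and 14.2% and 11.1% in smooth muscle-like cells. They were 15.9% and 21.9% in pericyte-like and 11.4% and 11% in blood endothelium-like cells. Of 5 listed costimulatory genes, macrophage- or monocyte-like cells had 3 of 3 higher and 0 lower, dendritic cell-like cells 4 of 4 higher and 0 lower, blood endothelium-like cells 1 of 1 higher and 0 lower and stroma-like cells 0 of 1 higher and 0 lower. Cd274, the ligand of the inhibitory receptor PD-1, had 146 UMIs in d/d and 6 in f/f macrophage- or monocyte-like cells (3.54, 2.39 to 5.01), and Cd80 had 58 UMIs in d/d and 7 in f/f dendritic cell-like cells (2.56, 1.43 to 3.94).

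Outside these classes class II RNA was sparse. In stroma-like, epithelium-like, smooth muscle-like, pericyte-like, blood and lymphatic endothelium-like and T cell-like cells it stood at 0.161% to 0.661% of the macrophage- or monocyte-like level in d/d and 0.366% to 1.28% in f/f. The 11 macrophage markers stood at 0.15% to 1.22% of their own level in the same d/d classes and 0.166% to 1.87% in the f/f classes. Of these markers, 3 were at 0 in d/d and 9 in f/f T cell-like cells, 1 in d/d and 5 in f/f lymphatic endothelium-like cells, and at most 1 in each of the other 5 classes of either library. Their part in the class II values outside the antigen-presenting classes was not tested. H2-Ab1 had 98 UMIs in d/d and 528 in f/f stroma-like cells (log2 fold -1.06), H2-Aa 106 UMIs in d/d and 447 in f/f (-0.71), H2-Eb1 170 UMIs in d/d and 779 in f/f (-0.83) and H2-DMb1 10 UMIs in d/d and 82 in f/f (-1.67). Cells with at least 10 class II UMIs held 4.88% of the class II UMIs of d/d stroma-like cells (1 cell) and 28.1% of those of f/f (15 cells). Within the shared stromal cluster H2-Ab1 was at -0.30, H2-Aa at -0.51 and H2-Eb1 at -0.40, over 18 to 44 UMIs per gene and library, too few to be called. In epithelium-like cells H2-Aa had 90 UMIs in d/d and 17 in f/f (1.46) and H2-Eb1 161 UMIs in d/d and 36 in f/f (1.21), and 3 of the 147 d/d cells held 62% of the class II UMIs. With doublets kept these folds turned to -2.23 and -2.14. In blood endothelium-like cells H2-Aa had 101 UMIs in d/d and 149 in f/f (-0.62) and H2-Eb1 132 UMIs in d/d and 215 in f/f (-0.76), which turned to 0.18 and 0.023 with doublets kept. Cells with at least 10 class II UMIs held 38.3% of the class II UMIs of d/d blood endothelium-like cells (6 of 603 cells) and 61.4% of those of f/f (8 of 486 cells). NK- or innate lymphoid-like cells had 3.61% of the macrophage- or monocyte-like level in d/d, over 37 cells, and 1.18% in f/f.

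**Figure D5:**
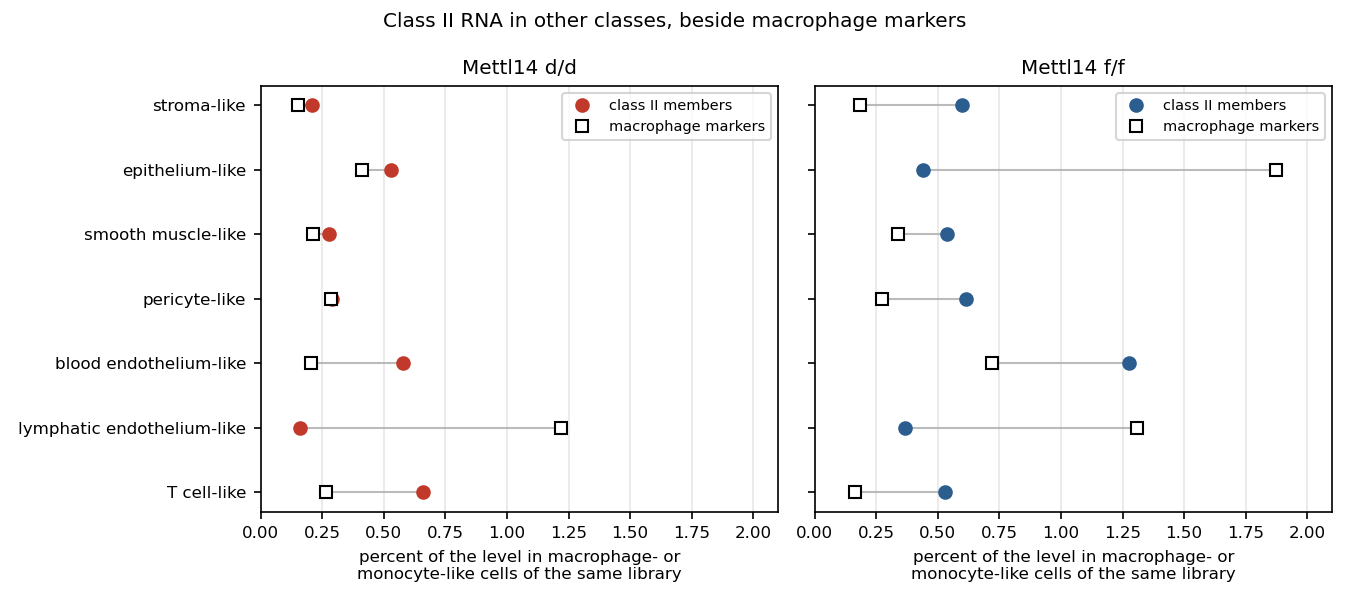
Class II members (filled circles) and the macrophage marker list (open squares) in 7 other cell classes (rows), each as a percent of its level in macrophage- or monocyte-like cells of the same library (x axis), with d/d on the left and f/f on the right. All points lie below 2%; in blood endothelium-like cells class II is at 0.578% and the markers at 0.207% in d/d, and at 1.28% and 0.721% in f/f.

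H2-Ke6, the 17-beta-hydroxysteroid dehydrogenase gene of the complex, was at 37 CPM in d/d and 25.1 CPM in f/f smooth muscle-like cells (log2 fold 0.56, 0.12 to 1.02), 26.1 CPM in d/d and 21.6 CPM in f/f stroma-like cells (0.27, 0.08 to 0.46) and 28.3 CPM in d/d and 32.8 CPM in f/f epithelium-like cells (-0.21, -0.65 to 0.23). The d/d epithelium-like level was called higher against f/f luminal-like cells, at 14.3 CPM (0.98, 0.20 to 1.86), and lower against f/f glandular-like cells, at 50.2 CPM (-0.83, -1.3 to -0.34). It was called higher in d/d pericyte-like cells, with 145 UMIs in d/d and 28 in f/f (1.07, 0.47 to 1.71).

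Some members share sequence near the 3′ end, where the reads lie. Of the 90-base words in the last 500 bases of the transcripts, 37.2% in H2-Ke6 also occur in Gm20427, 26.5% in H2-T22 also occur in H2-T10 and 12.7% in H2-DMb1 also occur in H2-DMb2. The share is 13.4% for H2-T23, 10.9% for H2-Q6 and 9.49% for H2-Q4, so counts of these 6 genes are less certain. No word of H2-K1, H2-D1, H2-Q7, H2-M3, H2-Aa, H2-Ab1 or H2-Eb1 is shared.

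Class I-like genes outside the H2 symbols gave mixed values. Of 6 listed, stroma-like cells had 0 of 4 higher and 1 lower, blood endothelium-like cells 2 of 5 higher and 0 lower, pericyte-like cells 0 of 3 higher and 1 lower, smooth muscle-like cells 0 of 2 higher and 0 lower, macrophage- or monocyte-like cells 0 of 1 higher and 1 lower and dendritic cell-like cells 0 of 2 higher and 2 lower. Over all genes, 14.1% were called higher and 20.4% lower in stroma-like, 11.4% and 11% in blood endothelium-like and 15.9% and 21.9% in pericyte-like cells. The shares were 14.2% and 11.1% in smooth muscle-like, 25.9% and 21.6% in macrophage- or monocyte-like and 16.9% and 19.8% in dendritic cell-like cells. Cd1d1, which presents lipids, was at 8.84 CPM in d/d and 18 CPM in f/f stroma-like cells (log2 fold -1.02). Fcgrt, the neonatal Fc receptor, was at 84.3 CPM in d/d and 37 CPM in f/f blood endothelium-like cells (1.19) and 49.6 CPM in d/d and 155 CPM in f/f macrophage- or monocyte-like cells (-1.65). Of 13 listed receptors for class I, macrophage- or monocyte-like cells had 1 of 2 higher and 0 lower and dendritic cell-like cells 1 of 2 higher and 1 lower, and none could be called in the other 5 classes. Lilrb4a had 165 UMIs in d/d and 40 in f/f macrophage- or monocyte-like cells (0.98, 0.48 to 1.52).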

How the data were processed

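Whole uterus was dissociated and sequenced with a 10x 3′ tag kit, per the labels' protocols. The deposited values are UMI counts per gene and barcode made on mm10 with Cell Ranger, given as version 3.0.1 per the submitters' processing notes and 6.0.1 per the file headers. There were 44745031 UMIs over 6661 barcodes in d/d and 55080123 over 8164 in f/f, and no barcode was under 500 UMIs. Cells with at least 1000 UMIs, 500 genes and at most 20% mitochondrial UMIs were kept. Scrublet in scanpy 1.11.5 ranked doublets, and 0.8% per 1000 barcodes were removed (348 d/d, 515 f/f), since its automatic threshold marked 400 d/d cells and 0 f/f cells.

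Both libraries were clustered together without integration (2000 variable genes, 30 components, 15 neighbours, Leiden resolution 1, 0.5 for epithelium). Counts were summed per class and scaled to the class total. Intervals are exact Poisson, Clopper-Pearson or conditional exact at 95%, and Wald on the log scale for ratios within a class. The ratio script was tested on simulated data. TMM used edgeR 4.0.16. Alternatives covered the clustering genes, doublets, cell filters, separate clustering, scaling and call limits. Every H2- symbol is accounted for, and those with 50 UMIs in a library of a compared class are given with values. The members and gene lists were chosen with earlier results of these data known. Alleles that differ from the mm10 sequence may be undercounted, and the counting of overlapping genes is not given in the sources used here.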

Additional observations from a re-analysis of the deposited data

Results flagged for a closer look

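Some members passed the 1.5-fold mark in opposite directions in different cell classes. With 1 library per genotype the difference between classes was not tested. H2-DMb1 had a log2 fold, d/d over f/f, of 0.59 in macrophage- or monocyte-like and -1.67 in stroma-like cells. H2-Ab1 had 0.66 in macrophage- or monocyte-like and -1.06 in stroma-like cells. H2-Aa had 1.46 in epithelium-like and 0.61 in macrophage- or monocyte-like cells, but -0.71 in stroma-like and -0.62 in blood endothelium-like cells. H2-Eb1 had 1.21 in epithelium-like and 0.66 in macrophage- or monocyte-like cells, but -0.83 in stroma-like and -0.76 in blood endothelium-like cells. With no doublets removed, the epithelium-like values turned to -2.23 for H2-Aa and -2.14 for H2-Eb1, and the blood endothelium-like values to 0.18 and 0.023. In the epithelium-like class 3 of the 147 d/d cells held 62% of the class II UMIs. Within the shared stromal cluster H2-Ab1 was at -0.30, H2-Aa at -0.51 and H2-Eb1 at -0.40, over 18 to 44 UMIs per gene and library, too few to be called. H2-T22 had 0.92 in epithelium-like and 0.67 in blood endothelium-like cells, but -0.82 in pericyte-like cells. The pericyte-like value was -0.57 under TMM, which is under the mark, and -0.04 within pericyte cluster 11.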

How the results depend on the processing

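No paired analysis was possible because each genotype has 1 library, and for the same reason no library could be left out. Of 695 values of 93 results under other settings, 546 kept their direction and lay within counting error (counts within 1.5 times), 142 moved further and 7 turned direction. The classical class I log2 folds with class totals were 1.17 in stroma-like, 1.17 in epithelium-like, 0.67 in smooth muscle-like, 0.24 in pericyte-like, 0.65 in blood endothelium-like and 0.70 in macrophage- or monocyte-like cells. With TMM scaling they were 1.22 in stroma-like, 1.37 in epithelium-like, 0.85 in smooth muscle-like, 0.49 in pericyte-like and 1.17 in macrophage- or monocyte-like cells. With no doublets removed they were 1.3 in epithelium-like, 0.38 in pericyte-like, 0.71 in blood endothelium-like and 0.91 in macrophage- or monocyte-like cells. Totals without mitochondrial and ribosomal protein genes gave 1.35 in epithelium-like, 0.61 in blood endothelium-like and 0.60 in macrophage- or monocyte-like cells. The stromal cluster shared by both libraries gave 0.89, a minimum of 2000 UMIs gave 0.89 in macrophage- or monocyte-like cells, and clustering each library by itself turned the pericyte-like value to -0.070. Per UMI of the marker genes of the class, an alternative chosen after seeing the data, the values were 0.35 in stroma-like, 1.09 in epithelium-like, 1.14 in smooth muscle-like, 1.14 in pericyte-like, 0.32 in blood endothelium-like and, reversed, -0.043 in macrophage- or monocyte-like cells. The pericyte markers themselves had a log2 fold of -0.90 in pericyte-like cells.

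Class II in macrophage- or monocyte-like cells, 0.64 with class totals, was 0.82 with no doublets removed, 0.97 with a minimum of 2000 UMIs, 1.1 with TMM, 0.53 without mitochondrial and ribosomal protein genes and, reversed, -0.10 per marker UMI. In dendritic cell-like cells, per marker UMI, classical class I was 0.82 against 0.26 with class totals and class II 0.97 against 0.40. The members called higher in smooth muscle-like cells numbered 3, against 6 with TMM, 1 at 2-fold and 5 with at least 20 UMIs. In blood endothelium-like cells there were 7, against 4 at 2-fold. In macrophage- or monocyte-like cells there were 9, against 5 without mitochondrial and ribosomal protein genes and 5 at 2-fold. Without mitochondrial and ribosomal protein genes, 47.2% of all called genes of that class were higher, against 54.5% with class totals. These are shares of called genes, not of all genes that could be called. The shares of all genes at the 2-fold and 20-UMI limits are not given here, so the counts at those limits cannot be set against them. With no doublets removed H2-Aa turned to -2.23 in epithelium-like and 0.18 in blood endothelium-like cells, and H2-Eb1 to -2.14 and 0.023. For the values that reversed or moved, the cause was not tested. Depth limits the members with few UMIs, and animal-to-animal spread is not measured.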
